A study of Mus musculus with 8 samples.

Results

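The 9 mouse genes described here encode ADAMTS proteases that cleave aggrecan, versican or cartilage oligomeric matrix protein (COMP), with 1 close relative. They are *Adamts1*, *Adamts4*, *Adamts5*, *Adamts8*, *Adamts9* and *Adamts15*, which cut proteoglycans, *Adamts7* and *Adamts12*, which cut COMP, and *Adamts6*. Each was taken as the row of the gene count table whose symbol equalled the name, 9 of 54658 gene symbols. RNA-Seq was done on primary articular chondrocytes of wild-type mice, taken at 3 weeks of age from the femoral heads, released with collagenase P and cultured in serum-containing medium. The IL-1β group (n = 4) received IL-1β at 1 ng/mL for 24 h, and the vehicle group (n = 4) received vehicle for the same time. The cells of both groups carried no transgene or deletion by their labels, and the labels do not say whether the samples came from separate mice or cultures. The p-values therefore measure the spread between these samples, which may be technical.

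ADAMTS proteins are secreted zinc metalloproteases with thrombospondin repeats. They are made as inactive precursors, are cut by proprotein convertases such as furin, and are held in check by TIMP-3 and by uptake through the receptor LRP1. In cartilage, the aggrecanases ADAMTS4 and ADAMTS5 cut the core protein of aggrecan, the proteoglycan that gives the tissue its resistance to compression. IL-1β is an inflammatory cytokine that drives cartilage cells towards breakdown of their matrix, and the comparison asks which of these proteases it moved at the RNA level.

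The active site was read from the coding sequence of each member, since it is the feature by which the family is recognised. Each line shows the 11 codons of the zinc-binding site, 33 bases 5′ to 3′ on the coding strand, from GENCODE vM21 transcripts of GRCm38. Capitals mark the codons of the 3 zinc-binding histidines and the codon at the eighth position of the site.
Adamts1: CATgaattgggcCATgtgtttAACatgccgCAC
Adamts4: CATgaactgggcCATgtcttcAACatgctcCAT
Adamts15: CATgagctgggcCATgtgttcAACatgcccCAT
Adamts9: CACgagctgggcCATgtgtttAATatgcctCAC
Adamts8: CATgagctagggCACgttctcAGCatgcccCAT
Adamts5: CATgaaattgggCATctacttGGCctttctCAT
Adamts6: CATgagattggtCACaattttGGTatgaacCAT
Adamts7: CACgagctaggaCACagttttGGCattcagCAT
Adamts12: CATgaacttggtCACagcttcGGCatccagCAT

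All 9 coding sequences held this site once. The eighth codon encoded asparagine in *Adamts1*, *Adamts4*, *Adamts9* and *Adamts15*, serine in *Adamts8*, and glycine in *Adamts5*, *Adamts6*, *Adamts7* and *Adamts12*. In this stretch 13 of 33 bases were identical in all 9 members. *Adamts4* was closest to *Adamts15*, with 30 of 33 identical bases, and shared 19 with *Adamts5*, the other classic aggrecanase. The COMP-cleaving *Adamts7* and *Adamts12* shared 26 of 33. The whole coding sequences ran from 833 codons for *Adamts4* to 1931 codons for *Adamts9*.

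Both pairs of neighbours in the set lie close together in the genome. *Adamts1* (chr16:85793827-85803113, GRCm38, minus strand) and *Adamts5* (chr16:85856173-85901828, minus strand) are 53.1 kb apart, with 1 annotated non-coding gene and 0 coding genes between them. *Adamts15* (chr9:30899155-30922452, minus strand) and *Adamts8* (chr9:30942562-30963838, plus strand) point away from each other across 20.1 kb with 0 annotated genes between. *Adamts4* lies at chr1:171250421-171260637 and *Adamts7* at chr9:90163069-90208071, both on the plus strand. *Adamts6* (chr13:104287835-104496695) and *Adamts12* (chr15:11064790-11349231) are also on the plus strand, and *Adamts9* (chr6:92772699-92943492) is on the minus strand. The values below count reads over all annotated exons of each gene, UTRs included.

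Libraries held 10992355 to 17104351 counts with IL-1β and 13970959 to 17456063 counts with vehicle. At these totals 3 counts, taken as the smallest amount shown, equal a CPM of 0.172 to 0.273, a limit that covers counting error only. CPM is a gene's count scaled to a common library total. Levels are given as CPM after TMM scaling, or as FPKM, here that CPM per kilobase of exon. The labelled treatment was visible in *Mmp3*, a stromelysin (log2 fold change 5.48), *Nos2*, the inducible nitric oxide synthase (5.40), and *Mmp13*, a collagenase (2.72), 3 of the 4 tested genes of that check. The fourth, *Ptgs2*, had 367 CPM after IL-1β against 385 CPM after vehicle (adjusted p = 0.0793, edgeR's quasi-likelihood test). *Il6* had 0 reads in each vehicle sample and 14 to 26 with IL-1β. The chondrocyte markers *Col2a1*, *Sox9* and *Hapln1* were abundant in the vehicle samples, at 11190, 566 and 558 CPM, as a cartilage cell would have them. No endothelial marker of 5 passed the filter, and the pan-leukocyte marker *Ptprc* had 0 to 6 reads in a sample.

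Testing covered 14404 genes, those whose CPM exceeded 1 in 4 or more samples. Of the 9 members, 6 met this minimum, and *Adamts4*, *Adamts8* and *Adamts15* did not. *Adamts7* met it only through the IL-1β samples, in which it was high, so its direction was set by the filter. By edgeR's quasi-likelihood test with Benjamini-Hochberg adjustment over all genes tested, *Adamts5* and *Adamts7* rose, and *Adamts1*, *Adamts9* and *Adamts12* fell. These 5 members with an adjusted p under 0.05 stand beside 40.2% of all genes tested, of which 20.4% were higher and 19.8% were lower. With a log2 fold change beyond 1 as a further condition, which makes a differentially expressed gene (DEG), 1 member remained, *Adamts7*. That it was higher was fixed by the filter, and none remained where each of the 8 samples had to exceed a CPM of 1. Of all genes tested, 5.21% were DEGs, 2.86% higher and 2.35% lower. In *Adamts1*, *Adamts5*, *Adamts7* and *Adamts9*, 4 members, the samples of the groups did not overlap. IL-1β was above vehicle in 2 of them, beside 18.7% of all genes tested, and below in the other 2, beside 18.2%, or 36.8% in all. The median log2 fold change was -0.36 over the 6 members tested and 0.00 over all 14404 genes. Because of the filter nothing particular to the family is read from these counts.

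**Figure D1:**
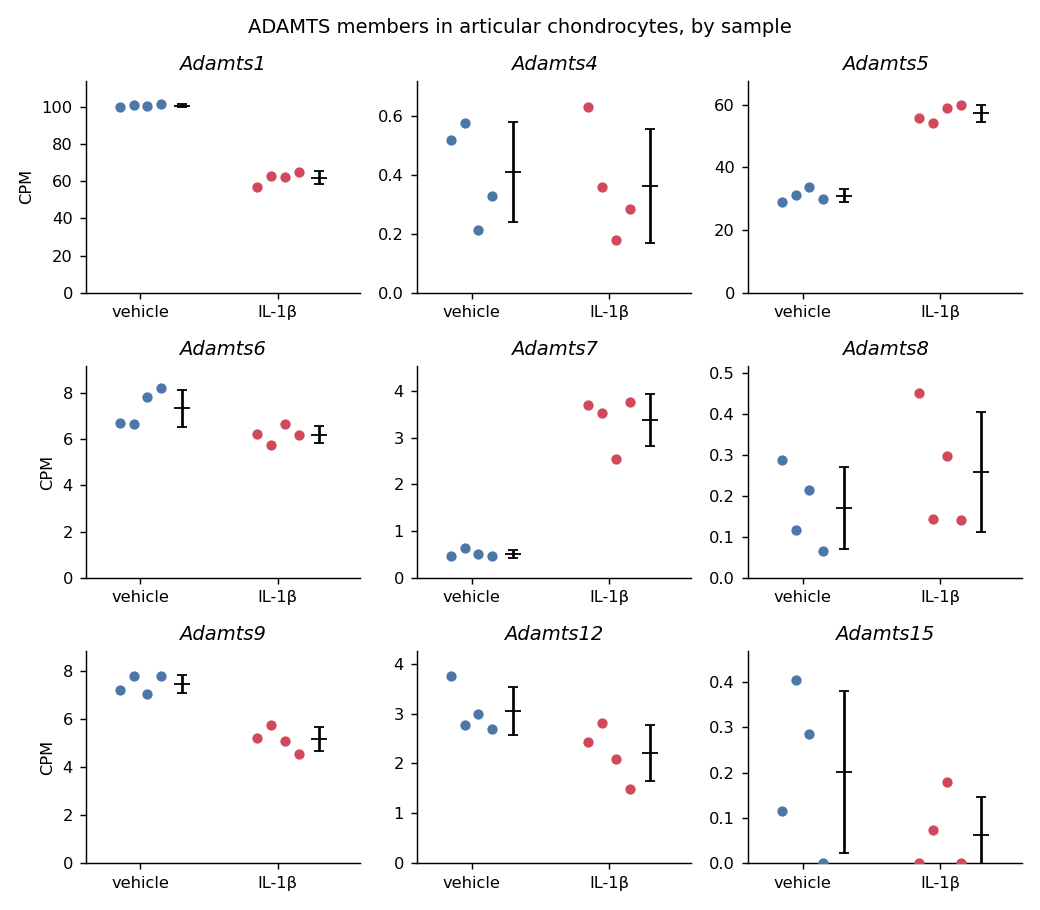
CPM of each of the 9 members in the 4 vehicle samples (blue) and the 4 IL-1β samples (red), with the mean and SD in black beside each group and a separate linear axis from 0 for each gene. The points of *Adamts1*, *Adamts5*, *Adamts7* and *Adamts9* form separate groups, while those of the other 5 members overlap.

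*Adamts5*, the main aggrecanase of mouse cartilage, rose with IL-1β. The IL-1β samples had 55.8, 54.3, 58.9 and 59.9 CPM, and the vehicle samples had 29.1, 31.2, 33.8 and 29.8 CPM. The lowest IL-1β sample was far above the highest vehicle sample. The means were 57.2 ± 2.61 CPM and 31.0 ± 2.09 CPM (SD, n = 4), a log2 fold change of 0.89 (SE 0.0497, adjusted p = 6.74e-15). This is under the fold that a DEG needs, and no sample left out brought it there, with log2 fold changes of 0.86 to 0.93. Each sample held 453 to 992 reads of the gene, and its exons, like those of *Adamts1*, overlap no other annotated exon.

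*Adamts4*, the other classic aggrecanase, was close to the limit of what these libraries show. Its reads were 7, 5, 3 and 4 after IL-1β and 9, 10, 3 and 5 after vehicle. The groups overlapped, and the means of 0.363 ± 0.193 CPM and 0.410 ± 0.168 CPM (SD, n = 4) differed by less than the spread between samples. In a fit with no filter on low counts, the log2 fold change was -0.29 (SE 0.487, edgeR adjusted p = 0.765). With an error of this size, neither a change nor its absence can be read from these counts. Whether a doubling would have been detected at this depth was not tested.

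Within a sample, the ratio of *Adamts4* to *Adamts5* reads per kilobase does not depend on scaling between libraries. Its log2 value was -6.28 ± 0.803 with IL-1β and -5.18 ± 0.726 with vehicle (SD, n = 4). The difference of -1.11 did not pass an exact permutation test over samples (two-sided, p = 0.143), in which the smallest p for 4 against 4 samples is 0.0286. *Adamts5* was far above *Adamts4* in both groups, at 2.87 against 0.0852 FPKM with vehicle and 5.30 against 0.0755 FPKM with IL-1β.

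*Adamts1*, which cleaves aggrecan and versican, was the most abundant member in both groups and fell with IL-1β. The IL-1β samples had 57.0, 63.0, 62.5 and 65.0 CPM, against 99.9, 101, 100.3 and 101 CPM in the vehicle samples. All 4 vehicle samples lay within a narrow band far above the IL-1β samples. The means were 61.9 ± 3.42 CPM and 100.7 ± 0.706 CPM (SD, n = 4), 1.62-fold lower with IL-1β (log2 fold change -0.70, SE 0.0394, adjusted p = 8.55e-15 in edgeR's quasi-likelihood test). With each sample left out in turn it stayed between -0.72 and -0.67. In bulk RNA such as this, fewer cells of a type and less RNA per cell cannot be told apart.

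*Adamts1* and *Adamts5*, neighbours on chromosome 16, thus moved in opposite directions. The ratio of their FPKM, chosen after their values were seen and given with no test, was 6.99, 6.60, 6.04 and 6.93 in the vehicle samples. It was 2.08, 2.36, 2.16 and 2.21 in the IL-1β samples. *Adamts1* stayed the higher of the pair in every sample.

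The promoter of *Adamts1* is shown because it is the most abundant member and because its motifs can be set beside those of other genes. RefSeq promoters (GRCm38.p6) were given for 3 members, *Adamts1*, *Adamts9* and *Adamts12*. The 250 bases before the start of *Adamts1* are chr16:85803114-85803363, minus strand, printed 5′ to 3′ in the direction of transcription, with the matches to an SP1 and a TATA motif in capitals.
Adamts1: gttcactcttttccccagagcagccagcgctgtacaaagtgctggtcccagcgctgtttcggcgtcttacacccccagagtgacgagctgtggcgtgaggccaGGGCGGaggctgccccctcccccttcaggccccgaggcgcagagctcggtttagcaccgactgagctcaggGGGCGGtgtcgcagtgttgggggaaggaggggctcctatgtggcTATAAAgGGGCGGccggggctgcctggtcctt

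Searched on both strands, the SP1 motif, GGGCGG, began at bases -147, -76 and -25 before the start and the TATA motif, which is TATAAA, at -32, and no motifs overlapped. Among 32851 RefSeq promoters of this length, 32.74% held GGGCGG and 12.37% held TATAAA. The *Adamts1* promoter was 65.6% G or C, against a median of 52.4% over all of them. *Adamts9* had 1 match to GGGCGG and *Adamts12* had none. No match to the NF-kB motif (in 1.41% of promoters) was in these windows of the 3 genes. The letters TGANTCA (AP-1, in 6.75% of promoters), TTNNGNAA (C/EBP, 36.85%), TGTGGT (RUNX, 14.05%) and TGACGTCA (CRE, 1.55%) were not there either. A match in letters is a description and not a binding site.

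*Adamts9*, a protease of versican and aggrecan that is conserved from worms to mammals, fell with IL-1β. It had 5.23, 5.77, 5.11 and 4.54 CPM in the IL-1β samples and 7.21, 7.80, 7.06 and 7.82 CPM in the vehicle samples. The groups did not overlap. The means of 5.16 ± 0.505 CPM and 7.47 ± 0.394 CPM (SD, n = 4) gave a log2 fold change of -0.54 (SE 0.114, adjusted p = 0.000342). Of its exon bases, 9.18% are shared with *A730049H05Rik* and 2.82% with *Gm15737*, both on the opposite strand, and these had at most 3 and 6 reads in a sample, against 58 to 135 for *Adamts9*.

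*Adamts8* and *Adamts15*, weaker proteoglycanases that lie side by side on chromosome 9, were near or under the limit of 3 counts. *Adamts8* had 5, 2, 5 and 2 reads with IL-1β and 5, 2, 3 and 1 with vehicle. *Adamts15* had 0, 1, 3 and 0 reads with IL-1β and 2, 7, 4 and 0 with vehicle. The groups overlapped in both genes. Without a filter their log2 fold changes were 0.52 (SE 0.661, edgeR adjusted p = 0.661) and -1.42 (SE 0.851, edgeR adjusted p = 0.314). *Adamts8* shares 10.6% of its exon bases with the antisense gene *Gm29724*, which had 5 to 12 reads in each sample.

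*Adamts7*, which cleaves COMP, showed the largest change of the members. Its reads were 41, 49, 43 and 53 after IL-1β, against 8, 11, 7 and 7 after vehicle. The lowest IL-1β sample held more than 3 times as many reads as the highest vehicle sample. The means were 3.39 ± 0.562 CPM and 0.514 ± 0.0830 CPM (SD, n = 4), 6.39-fold higher with IL-1β (log2 fold change 2.68, SE 0.241). The filter admitted the gene only through the samples in which it was high. Its p-value is therefore taken from edgeR's quasi-likelihood test with no filter on low counts. There the log2 fold change was 2.67 (adjusted p = 1.69e-23). That fit gave *Adamts5* an adjusted p of 3.91e-66 and *Adamts1* one of 6.36e-61. Its p-values are thus not to be set beside those of the filtered fit, from which the SE comes. Among the IL-1β samples, replicate 3 was the lowest, at 2.55 CPM against 3.53 to 3.76 CPM, and without it the log2 fold change was 2.81. Of the exon bases of *Adamts7*, 122 (1.94%) are shared with *Tbc1d2b* on the opposite strand. That gene's mean CPM was 33.7 ± 1.05 after IL-1β and 30.5 ± 0.556 after vehicle (SD, n = 4, log2 fold change 0.15, adjusted p = 0.0147). How many of its reads were counted for *Adamts7* was not tested.

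*Adamts12*, the other COMP-cleaving protease and the member whose zinc site was closest to that of *Adamts7*, was lower with IL-1β by a small margin. It had 27, 39, 35 and 21 reads with IL-1β and 65, 48, 42 and 41 reads with vehicle. In CPM, IL-1β replicate 2 (2.81) lay above vehicle replicates 2 (2.77) and 4 (2.69), so the groups overlapped. The means of 2.20 ± 0.563 CPM and 3.05 ± 0.482 CPM (SD, n = 4) gave a log2 fold change of -0.49 (SE 0.192, adjusted p = 0.0446). The call was lost under DESeq2 (adjusted p = 0.101), with no filter (0.0512) and with the replicate number as a block (0.0541). It was also lost without IL-1β replicate 3 (0.104), IL-1β replicate 4 (0.177), vehicle replicate 1 (0.18) or vehicle replicate 3 (0.0652). The *Adamts12* to *Adamts7* ratio in FPKM, a description chosen with the values known, was 2.51 to 4.67 in the vehicle samples and 0.228 to 0.468 in the IL-1β samples.

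*Adamts6*, a relative of the fibrillin-associated ADAMTS10, did not pass the test. The IL-1β samples had 6.22, 5.77, 6.65 and 6.17 CPM, against 6.69, 6.64, 7.85 and 8.21 CPM in the vehicle samples. IL-1β replicate 3 lay just above vehicle replicate 2, and the other 3 were lower than any vehicle sample. The log2 fold change was -0.23 (SE 0.113, adjusted p = 0.105), and the adjusted p was 0.0709 to 0.29 with each sample left out in turn.

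**Figure D2:**
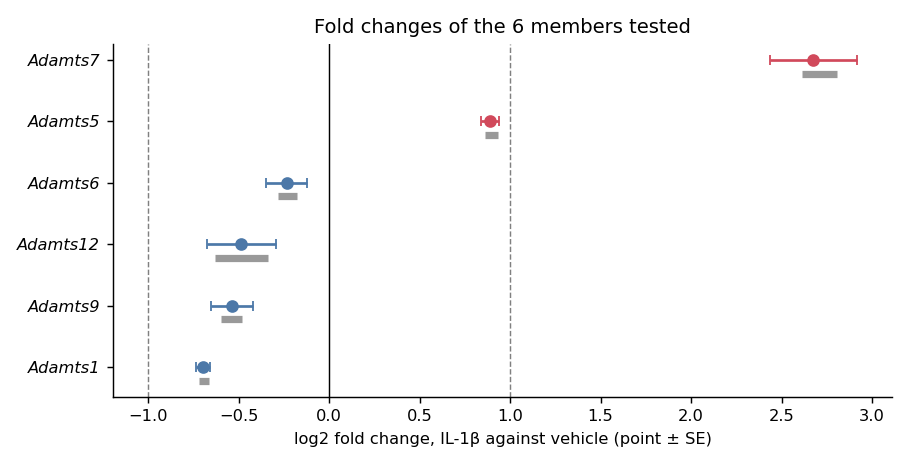
Log2 fold change of the 6 members tested, IL-1β against vehicle, as points with SE bars. Grey bars give the range when any 1 of the 8 samples is left out, and dashed lines the limit of 1 for a DEG, which *Adamts7* (2.68) exceeded and *Adamts5* (0.89) did not.

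Per kilobase, the order of the levels with vehicle was *Adamts1* (19.0 FPKM), *Adamts5* (2.87), *Adamts6* (0.942), *Adamts9* (0.497) and *Adamts12* (0.280), and these neighbours did not overlap in range. Below them, *Adamts4* (0.0852 FPKM), *Adamts7* (0.0818) and *Adamts8* (0.0371) followed, and *Adamts15* had 0.0194 FPKM. Here *Adamts4* overlapped with both *Adamts7* and *Adamts8*, and *Adamts8* overlapped with *Adamts15*. With IL-1β, *Adamts7* (0.539 FPKM) came directly after *Adamts6* (0.795) and above *Adamts9* (0.343), *Adamts12* (0.202) and *Adamts4* (0.0755). The only neighbours that overlapped with IL-1β were *Adamts4* and *Adamts8* (0.0560 FPKM). The length used is that of all annotated exons of a gene. It was 15048 bases for *Adamts9*, whose longest coding transcript has 8016, and 6282 for *Adamts7*, whose longest has 5379. The order of members with close levels, such as these, depends on that choice and was not tested with other lengths. Among all genes tested, the level of *Adamts1* per kilobase was at percentile 84.2 with vehicle and 74.6 with IL-1β, and that of *Adamts5* at 39.6 and 54.5.

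Summed over the 9 members, the level was 23.8 ± 0.233 FPKM with vehicle (23.5 to 24.0) and 19.0 ± 0.671 FPKM with IL-1β (18.1 to 19.7). The sum was lower with IL-1β while its makeup shifted. *Adamts1* made up 79.8% of it with vehicle and 61.4% with IL-1β. *Adamts5* made up 12.1% with vehicle (11.5% to 13.0% over samples) and 27.9% with IL-1β (26.5% to 28.5%). *Adamts7* made up 0.344% and 2.84%. All of these shares rest on the same exon lengths. The share of the remaining 6 members together was under that of *Adamts5* in every sample of both groups.

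**Figure D3:**
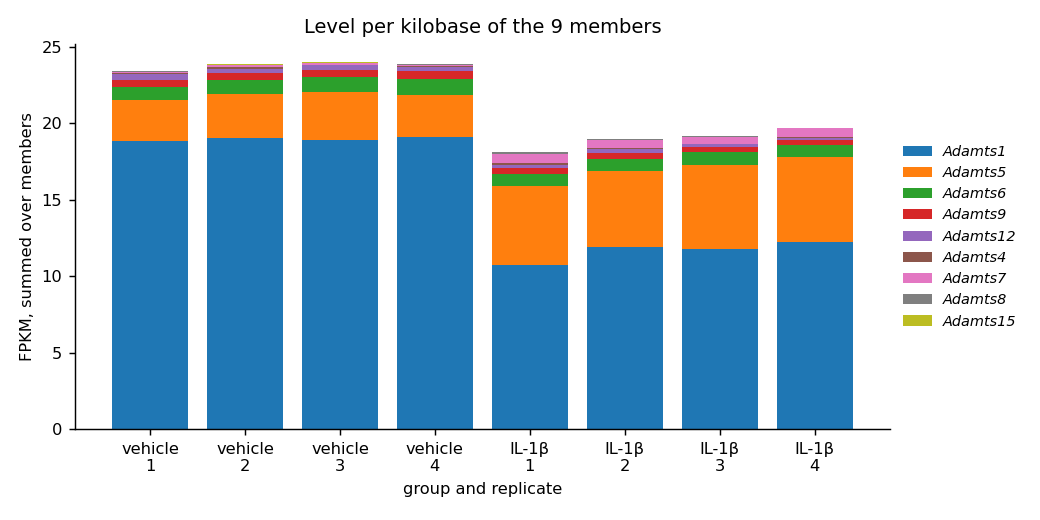
FPKM of the 9 members stacked in each of the 8 samples, from a linear axis at 0. The vehicle bars reach 23.5 to 24.0 and the IL-1β bars 18.1 to 19.7, with a smaller *Adamts1* segment and larger *Adamts5* and *Adamts7* segments in the IL-1β samples.

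The remaining 10 ADAMTS protease genes gave a background for the members. Of these, 4 were tested, 0 were higher and 2 were lower with an adjusted p under 0.05, with a median log2 fold change of -0.27, and none was a DEG. *Adamts2*, a procollagen N-propeptidase, fell from 12.7 to 8.97 CPM (log2 fold change -0.50, edgeR adjusted p = 4.81e-05). *Adamts10*, which binds fibrillin, fell by 0.21 on the log2 scale (edgeR adjusted p = 0.028, up to 0.0794 with a sample left out). Of 7 genes for ADAMTS-like proteins, which lack the protease domain, 4 were tested and 1 was a DEG. *Adamtsl3* fell from 35.2 ± 2.43 CPM to 7.68 ± 0.884 CPM (log2 fold change -2.20, SE 0.0784, adjusted p = 1.71e-19). *Adamtsl5* rose by 0.28 (edgeR adjusted p = 0.0405, up to 0.114 with a sample left out).

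The substrates of the family were mostly lower with IL-1β. Of 10 substrate genes, 8 were tested, 5 fell and 3 rose, with a median log2 fold change of -1.11, and 6 were DEGs. *Acan*, which encodes aggrecan, had 231, 246, 254 and 258 CPM in the IL-1β samples and 1257 to 1334 CPM with vehicle (log2 fold change -2.37, SE 0.0350, adjusted p = 1.02e-28). *Comp*, the substrate of *Adamts7* and *Adamts12*, went from 531 ± 12.3 CPM to 106 ± 7.17 CPM (log2 fold change -2.33). The fall was of similar size in *Fmod*, the small proteoglycan fibromodulin (-2.09), and smaller in *Fbn2*, fibrillin-2 (-1.56), and *Bgn*, biglycan (-0.65). *Vcan*, which encodes versican, moved the other way, from 8.71 ± 0.511 CPM to 19.8 ± 1.34 CPM (log2 fold change 1.18, adjusted p = 1.4e-12). *Dcn*, decorin, also rose (1.52), and *Fbn1* rose by 0.11.

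*Acan* and *Comp* are also chondrocyte markers, and the 10 markers of that list all fell, each as a DEG. Their summed level was 15000 to 15500 CPM with vehicle and 3780 to 4160 CPM with IL-1β, and none was near 0 in either group. The summed level of 5 macrophage markers was 9.79 to 10.7 CPM with vehicle and 14.3 to 17.7 CPM with IL-1β, most of it *Cd68*. *Csf1r* did not pass the filter but had 7 to 19 reads in each IL-1β sample and 7 to 17 in each vehicle sample. *Adgre1* and *Itgam* had 0 to 3 reads. That of 6 synovial and fibrous tissue markers was 125 to 134 CPM and 136 to 152 CPM, of which *Pdgfra* (0.58) and *Cd34* (0.76) rose and *Col1a1* did not pass the test. *Thy1*, *Dpt* and *Pi16* did not pass the filter, at 0 to 11, 0 to 2 and 0 to 8 reads in a sample. *Thy1* had 10 reads in sum with IL-1β and 28 with vehicle. Endothelial markers summed to 0.751 to 0.998 CPM with vehicle and 0.649 to 1.25 CPM with IL-1β, and erythroid markers to 0.920 to 1.67 CPM and 1.43 to 1.80 CPM. The part of these markers in the changes of the members was not tested.

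The ratio of substrate to protease RNA was lower with IL-1β for both classic pairs, as a description. *Acan* to *Adamts5* in FPKM was 54.0 to 64.8 in the vehicle samples and 5.98 to 6.55 in the IL-1β samples. *Comp* to *Adamts7* was 1743 to 2528 with vehicle and 54.7 to 90.0 with IL-1β. Both genes of each pair moved, in opposite directions.

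The inhibitors and the clearance receptor did not move together. Of 7 genes, 6 were tested, 3 rose and 1 fell, with a median log2 fold change of 0.10. *Timp3*, the tissue inhibitor that binds the aggrecanases, had 2386, 2571, 2633 and 2603 CPM in the IL-1β samples and 5802, 6084, 6159 and 6324 CPM in the vehicle samples. It was 2.39-fold lower with IL-1β (log2 fold change -1.26, SE 0.0292, edgeR adjusted p = 5.44e-24) and was the 1 DEG of the list. *Lrp1*, the receptor that takes up ADAMTS4 and ADAMTS5, rose by 0.29 on the log2 scale, from 2059 ± 29.7 to 2512 ± 82.4 CPM. *Grn*, progranulin, which binds ADAMTS7 and ADAMTS12, rose by 0.25, and *Timp1* by 0.54. *Timp2* (-0.06) and *A2m* (-0.31), which encodes the general protease trap alpha-2-macroglobulin, did not pass the test.

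The log2 ratio of *Adamts5* to *Timp3* reads per kilobase was -5.88 ± 0.0641 with IL-1β and -8.03 ± 0.0914 with vehicle (SD, n = 4). The values of the groups did not overlap. The difference of 2.14 gave p = 0.0286 in an exact permutation test over samples (two-sided), the smallest that 4 against 4 samples allow. With replicate numbers as a block, an exact sign-flip test gave p = 0.125, the smallest that 4 pairs allow. Every IL-1β sample had more *Adamts5* and less *Timp3* than any vehicle sample. Both p-values were therefore fixed by the results of the 2 genes and add no support to them. *Timp3* still exceeded *Adamts5* in FPKM by 56.7 to 62.7 times in the IL-1β samples, against 241 to 281 times in the vehicle samples.

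The genes that activate the proteases or help to secrete them were split. All 10 were tested, 4 rose and 5 fell, with a median log2 fold change of 0.00. *Sdc4*, syndecan-4, a cell-surface proteoglycan that takes part in ADAMTS5 activation, rose to 1105 ± 24.6 CPM, against 483 ± 11.8 CPM with vehicle (log2 fold change 1.19, SE 0.0299, edgeR adjusted p = 3.69e-23). *Pcsk6*, a proprotein convertase that activates aggrecanases in cartilage, fell from 269 ± 7.67 CPM to 99.8 ± 5.81 CPM (log2 fold change -1.43, SE 0.0364, edgeR adjusted p = 5.44e-23). *Furin* fell by 0.30 and *Pcsk7* by 0.19, while the convertase *Pcsk5* rose by 0.52. Of the enzymes that add the fucose-glucose sugar to thrombospondin repeats, *Pofut2* fell by 0.27 and *B3glct* rose by 0.41. *Sdc1* rose by 0.72, *Fn1*, fibronectin, fell by 0.56, and *Fbln1* (0.20) did not pass the test.

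**Figure D4:**
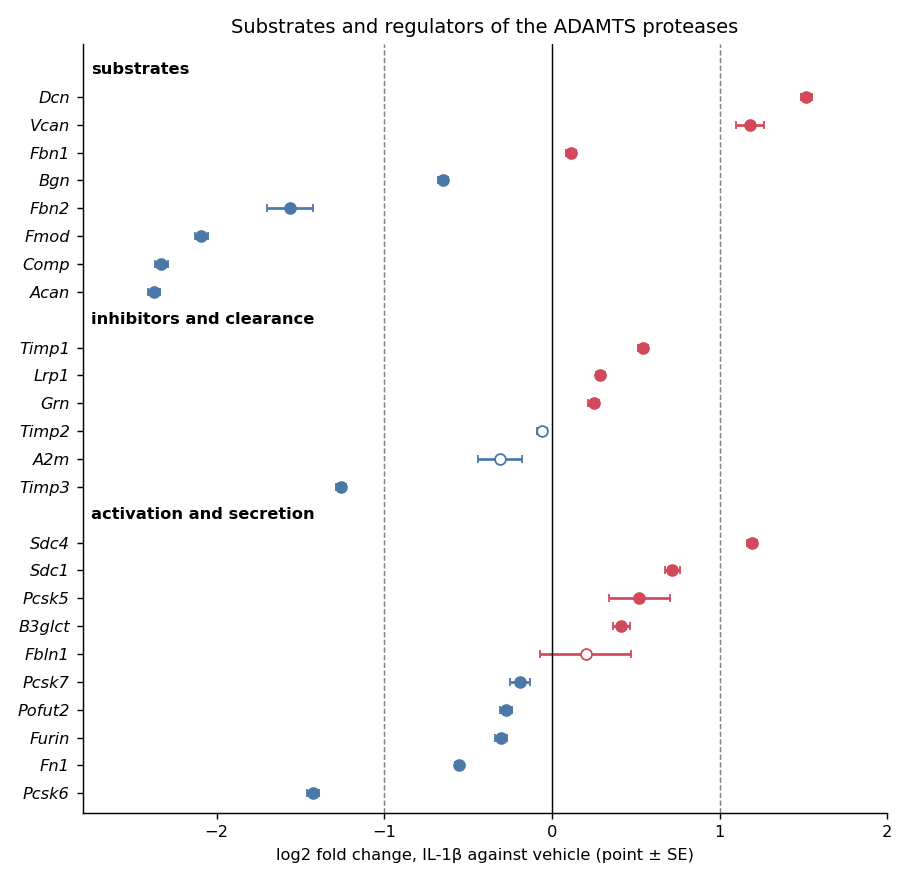
Log2 fold change with SE, IL-1β against vehicle, of the tested substrates, inhibitors and activators of the proteases, red for higher, blue for lower and open for an adjusted p of 0.05 or more. Dashed lines mark the limit of 1 for a DEG, with *Acan* (-2.37) and *Comp* (-2.33) at the left end and *Dcn* (1.52) at the right end.

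Of 10 genes of the IL-1 receptor and of transcription factors reported to act on ADAMTS genes, all were tested, 7 rose and 2 fell, with a median log2 fold change of 0.61. *Il1rap*, the accessory chain of the receptor, rose by 1.15, from 5.18 to 11.6 CPM, while *Il1r1*, the chain that binds IL-1β, had 33.9 CPM after IL-1β against 35.8 CPM after vehicle (adjusted p = 0.263, edgeR). *Cebpb* rose by 1.30, and *Nfkb1* (0.89), *Runx1* (0.87), *Epas1* (0.67), *Sox11* (0.54) and *Rela* (0.42) rose by less. *Runx2* fell by 0.52 and *Sox4* by 0.81.

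The study is about the microRNA miR-146a-5p, so matches to its seed were sought in the members' 3′ UTRs, taking for each gene the coding transcript of greatest length. The mature sequence from RefSeq (GRCm38.p6, chr11:43374435-43374456, minus strand) is printed with its seed, bases 2 to 8, in capitals.
miR-146a-5p: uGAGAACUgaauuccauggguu

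The letters AGTTCTC pair with the whole seed, while GTTCTCA pairs with its bases 2 to 7 only and then has an A. A match of 7 bases in either form was in 4 of 9 members, *Adamts5*, *Adamts6*, *Adamts12* and, at 2 places, *Adamts15*. Of the 6 members tested it was in 3, beside 2480 of 11937 tested genes with a 3′ UTR (20.8%). The UTRs searched ran from 229 bases (*Adamts7*) to 6437 bases (*Adamts5*), and longer ones hold more matches. The sites of the 3 members that were tested are shown in windows of 30 bases from GENCODE vM21, with the match in capitals.
Adamts5: ttagagtagggGTTCTCAtcaatgtgtaaa
Adamts6: atcatcccctaAGTTCTCcagaggaggcta
Adamts12: gtgatagaattAGTTCTCcaaaaagttata

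These lie at bases 5663 to 5669 of 6437, 1819 to 1825 of 2888 and 2769 to 2775 of 3554 of the respective 3′ UTR. The 3 genes did not share a direction, since *Adamts5* rose by 0.89, *Adamts6* had -0.23 and did not pass the test, and *Adamts12* fell by 0.49. The level of the microRNA was not analysed here, and a match of letters does not show that a transcript is bound.

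Among the genes whose log2(CPM + 1) followed *Adamts5* most closely over the 8 samples were *Zc3hav1* (r = 0.997) and *Zfp36l1* (r = 0.997), given as a description. These points share the treatment, and 916 genes had an r above 0.95. For *Adamts4*, which rests on 3 to 10 reads in a sample, the closest included *Cbx3* (r = 0.966) and *Dnaja1* (r = 0.956), which at such counts is no finding.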

How the data were processed

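RNA-Seq of 8 samples of cultured murine articular chondrocytes was used, 4 treated with IL-1β and 4 with vehicle, grouped by the treatment in their labels. The authors used cutadapt for trimming, STAR for alignment to mm10 and GENCODE vM20 (2.4.2a in the submitters' processing notes, another version in the paper's methods) and featureCounts for counting. The authors deposited whole-number counts per gene symbol, with the gene's exon length in bases (unit: other). Whether the RUVseq batch correction that the methods name was applied to these counts, and whether counting used the strand, are not given in the sources used here.

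After TMM scaling, the quasi-likelihood test of edgeR 4.0.16 (with limma 3.58.1 under R 4.3.3) compared the treatments with no other term. It covered 14404 genes, those whose CPM exceeded 1 in 4 or more samples, with Benjamini-Hochberg adjustment over all of them. A DEG had an adjusted p under 0.05 and a log2 fold change beyond 1. The SE of a log2 fold change was derived from this test, as its absolute value divided by the square root of the F statistic. FPKM was the TMM-scaled CPM divided by the exon length in kilobases. On simulated counts with 200 of 14404 genes changed, edgeR and DESeq2 (1.42.0) each recovered 100% with 0 false calls. All planted changes had the same size, larger than the limit for a DEG. Recovery of smaller changes, such as those of *Adamts5* and *Adamts1*, was not tested. Ratios were tested by exact permutation over samples in Python 3.11.15 (scipy 1.17.1, numpy 2.4.6, pandas 2.3.3), and figures were drawn with matplotlib 3.10.9.

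The members and the gene lists were chosen with earlier results of these data known. Named were all 9 members, every DEG of the lists, and *Acan*, *Comp*, *Vcan*, *Timp3*, *Lrp1*, *Grn*, *Sdc4*, *Furin* and *Pcsk6*; further genes were named after their values were seen. Libraries of 10992355 to 17456063 counts set a limit of 3 counts, 0.172 to 0.273 CPM. Alternatives were DESeq2, other scalings and filters, a replicate block, 1 factor of unwanted variation (RUVs), other thresholds and each sample left out. Samples with the same replicate number did not deviate together (r = -0.0699 to 0.0416), so the numbers were not taken as pairs. Replicates of a group differed by more than counting noise (chi-square per degree of freedom 1.58 to 3.84), so no library was counted as a repeat. The common coefficient of variation beyond counting noise was 4.11%. These values do not show whether the replicates were separate cultures. Exon lengths in GENCODE vM21 equalled the deposited lengths for all 9 members. Promoters of *Adamts4*, *Adamts5*, *Adamts6*, *Adamts7*, *Adamts8* and *Adamts15* were not used here. Some genes that the naming rule or an overlap would add are not reported here.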

Additional observations from a re-analysis of the deposited data

Results flagged for a closer look

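The CPM of the 9 members and of every other listed gene that passed the filter, 68 genes in all, and the total counts were compared within each group by Dixon's ratio at the 95% level, over 138 groups of values. This marked 9 of them, where chance marks about 1 in 20, and none was a member. Vehicle replicate 4 stood above the other vehicle samples in *Adamtsl3*, with 38.8 CPM where those had 33.5 to 34.2 CPM, and in *Comp*, with 549 CPM where those had 523 to 527 CPM. It stood below them in *Pcsk7*, with 23.4 CPM where those had 25.5 to 25.6 CPM. Vehicle replicate 3 was the low one in *Epas1*, with 32.7 CPM where the others had 36.7 to 37.2 CPM, and in *Adamts14*, with 0.927 CPM where the others had 1.21 to 1.25 CPM. IL-1β replicate 3 stood below its group in *Vcan*, with 17.8 CPM where the others had 20.3 to 20.7 CPM, and above it in *Lrp1*, with 2634 CPM where the others had 2463 to 2486 CPM. IL-1β replicate 1 stood above its group in *Nos2*, with 73.9 CPM where the others had 64.4 to 65.6 CPM, and below it in *Hapln1*, with 252.6 CPM where the others had 266 to 267 CPM.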

How the results depend on the processing

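Under the alternatives run, the directions of the 6 members tested did not turn, and *Adamts12* alone lost its call. The count of member DEGs, 1, was 0 where each of the 8 samples had to exceed a CPM of 1, since *Adamts7* was then not tested, and 5 by adjusted p alone. Other ADAMTS proteases went from 0 to 2, inhibitors and clearance genes from 1 to 4, and activation and secretion genes from 2 to 9 by adjusted p alone. With a log2 fold change beyond 2, substrates went from 6 to 3, inhibitors from 1 to 0 and activation genes from 2 to 0. Leaving out each sample in turn kept these counts at 1, 0, 6, 1 and 2, the *Adamts4* to *Adamts5* difference at -1.43 to -0.80 and the *Adamts5* to *Timp3* difference at 2.11 to 2.18. Under the replicate block the latter stayed 2.14 with an exact p = 0.125, and the counts of DEGs in the lists stayed as they were. Samples of the same number did not deviate together, so the block does not show pairing. Over all genes, 751 DEGs became 1206 with no filter, 511 of 12964 genes where all 8 samples had to exceed a CPM of 1, 757 with DESeq2 and 751 with the block. Depth limits *Adamts4*, *Adamts8* and *Adamts15*, at 0 to 10 reads in a sample.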
